A study of Mus musculus with 10 samples.

Results

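Potassium channel subunit genes were taken as all genes on the array whose single annotated symbol begins with Kcn, which gave 80 of 17991 genes, 78 of them coding for proteins and 2 for noncoding RNAs (Kcnq1ot1 and Kcnmb4os1). They were measured by 115 probes, and where a gene had several, in 21 cases, the probe of highest mean stood for it. The regional differences of the probes disagreed in sign for 10 of those 21 genes. The samples came from male ApoE-/- mice of 14 weeks, in which loss of apolipoprotein E raises blood cholesterol, and every mouse carried this deletion. The aortas of 2 mice were pooled, and each of the 5 pools (1, 6, 8, 11 and 12) was divided into the abdominal aorta below the renal arteries (infrarenal) and the aorta above them (suprarenal), with 1 array for either. A value therefore averages 2 animals and all cells of the vessel with any tissue left on it. Wild-type mice were not analysed here.

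Potassium channels let potassium leave the cell, which pulls the membrane voltage down and closes voltage-gated calcium channels. In arterial smooth muscle this relaxes the vessel wall. The large-conductance calcium-activated channel (BK), made of the Kcnma1 pore and the Kcnmb1 beta subunit, answers local calcium release, ATP-sensitive channels with the Kcnj8 pore link the voltage to metabolism, and voltage-gated and background channels limit depolarisation.

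Levels are log2 of the intensities as scaled by the authors, where 0 is near the median probe of an array. A probe's brightness also depends on its sequence, so differences were taken between arrays for each probe. Counts of genes above a brightness limit compare probes and do not rank genes by their amount of RNA. Pools were separate mice, and p-values measure the spread between pools. Arrays correlated pairwise between 0.962 and 0.975 across probes. The Apoe probe lay among the dimmest 30% of probes, between -5.09 and -2.57 on the 10 arrays. The 8 smooth muscle markers were all brighter than that limit, with a summed scaled intensity of 1276.1 to 1398.0 on infrarenal and 1344.6 to 1391.4 on suprarenal arrays. The brightest markers weigh most in this sum. Over the 10 arrays Acta2 spanned 0.325 log2 units, while the dimmer Des and Myocd spanned 1.38 and 1.12. The narrow sum therefore does not show a constant share of smooth muscle. Pool 12 stood apart: its regional differences and the average of those in the remaining pools correlated at -0.308 across 24991 brighter probes, and the same measure was -0.097 to 0.339 for pools 1, 6, 8 and 11. The labels of its parts were kept as given. Whether the parts were exchanged was not tested. If they were, pool 12 differences would have the opposite sign and those over 5 pools would move.

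Of the 80 genes, 50 (62.5%) had a mean above the dimmest 30% of probes (above -1.59), where 78.3% of all genes did. On single arrays, 44 genes exceeded that array's own limit on all 10 arrays, 17 on none and 19 on some. Just inside the limit were Kcnj15 at -1.43, Kcnk12 at -1.23 and Kcnb2 at -1.17, and just outside were Kcnmb4 and Kcnk1, both at -1.62, and Kcnd3 at -1.68. By role, the brighter genes were 7 of 14 voltage-gated pore genes of the Kcna to Kcnd families, 4 of 6 silent modifiers, 4 of 8 of the Kcnh family, 3 of 3 Kcnq genes, 3 of 4 Kcne and 2 of 3 Kcnab beta subunits, 3 of 4 Kcnip calcium sensors, 9 of 14 inward rectifiers, 7 of 11 of the Kcnk family, whose subunits carry a pair of pore domains, 3 of 4 BK genes and 3 of 4 small- and intermediate-conductance (Kcnn) genes. Of the sodium-activated and sperm channel genes 1 of 2 was among them, Kcnt1, and of the noncoding RNAs 1 of 2, Kcnq1ot1. Kcnrg, which encodes a regulator of voltage-gated channels, was not. Split by region, 50 genes were above the infrarenal and 53 above the suprarenal limit. Kcnmb4 was above it by its infrarenal mean only, and Kcnd1, Kcnj15, Kcnk1 and Kcns2 by their suprarenal mean only. This does not show a gene present in only 1 region, and none of them had an unadjusted p under 0.05 (limma). The Kcnk1 means were -1.628 in infrarenal and -1.622 in suprarenal aorta. Kcnmb4 exceeded the limit on 2 arrays of either region, and 1 suprarenal array lay at the floor. The share of all genes was not taken by region.

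**Figure D1:**
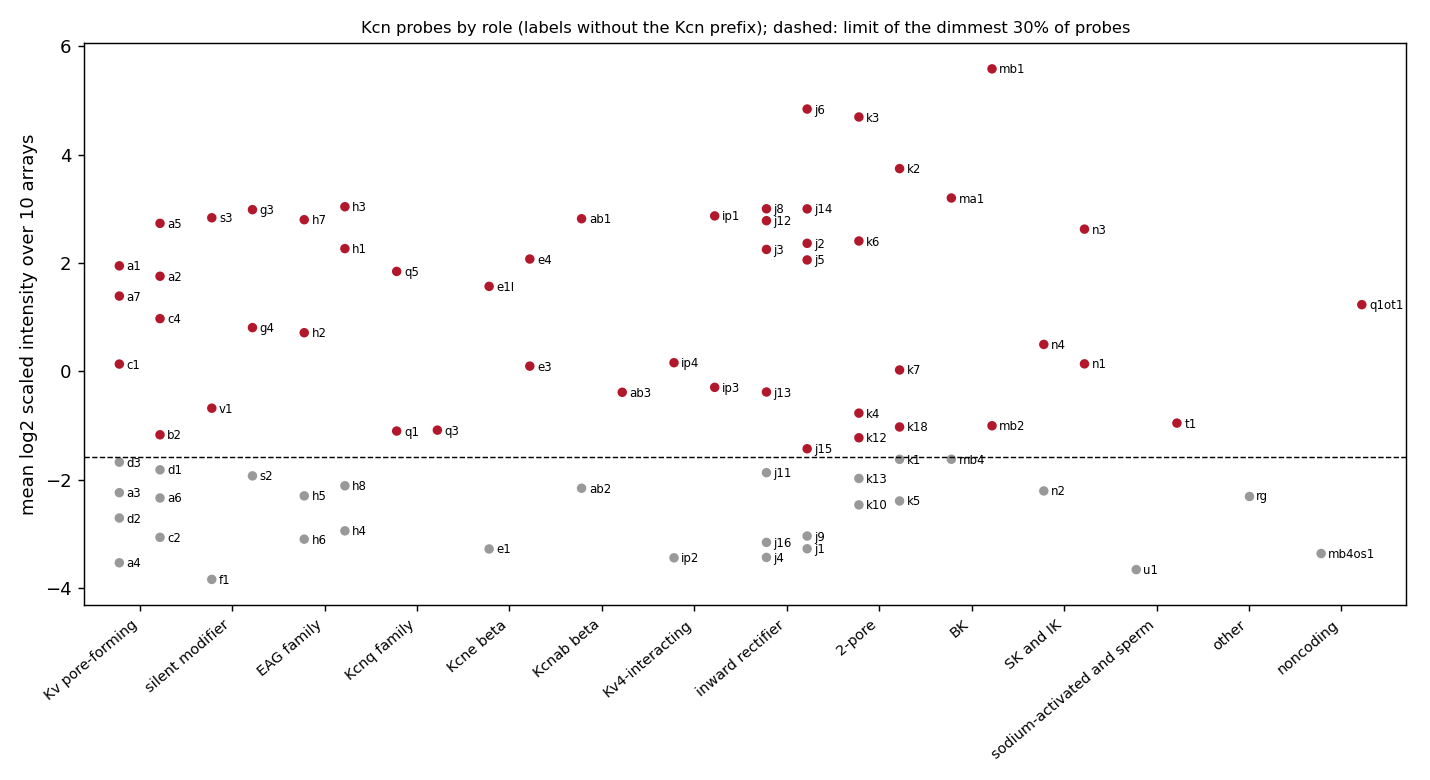
Mean log2 scaled intensity of the 80 Kcn probes over 10 arrays (vertical axis) by role of the gene, with red points for the 50 genes above the limit of the dimmest 30% of probes (dashed line at -1.59) and grey points for the other 30. Every role with more than 1 coding gene has points on the upper side, and the Kv pore-forming, EAG family (Kcnh) and inward rectifier columns are spread over both sides.

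No potassium channel gene differed between the regions after adjustment. Of the 80 genes, 0 passed at an adjusted p under 0.05 (limma, Benjamini-Hochberg over all probes), against 0% of all genes. At an unadjusted p under 0.05, 2 genes were lower in infrarenal aorta (Kcnj12 and Kcnj3, 2.5% of 80 against 5.89% of all genes) and 1 was higher (Kcnk18, 1.25% against 2.17%). These counts are too small to set the members apart from all genes. With no replicate block the share called was 8.75% against 7.81% of all genes, and without pool 12 it was 15% against 12.7%. The median difference, infrarenal minus suprarenal, was -0.045 log2 units over the 80 genes and -0.049 over all genes. It lay below 0 for 46 of 80 genes (57.5%, against 60.4% of all genes) and for 32 of the 50 brighter ones (64%, against 66.5%). After quantile normalization 26 of the 50 brighter genes lay below 0, against 49.8% of all brighter genes. In every pool 3 genes read lower in the infrarenal part (Kcnj12, Kcnj2 and Kcnj3, 3.75% against 6.23% of all genes) and 5 read higher (Kcnk12, Kcnk18, Kcnk4, Kcnn4 and Kcnrg, 6.25% against 2.92%). The arrays of both regions overlapped for each of the 80 genes (0 without overlap), where 0.884% of all genes had all infrarenal arrays lower and 0.372% all higher. The 95% interval of a difference had a median half-width of 0.34 log2 units over the 50 brighter genes, before adjustment.

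**Figure D2:**
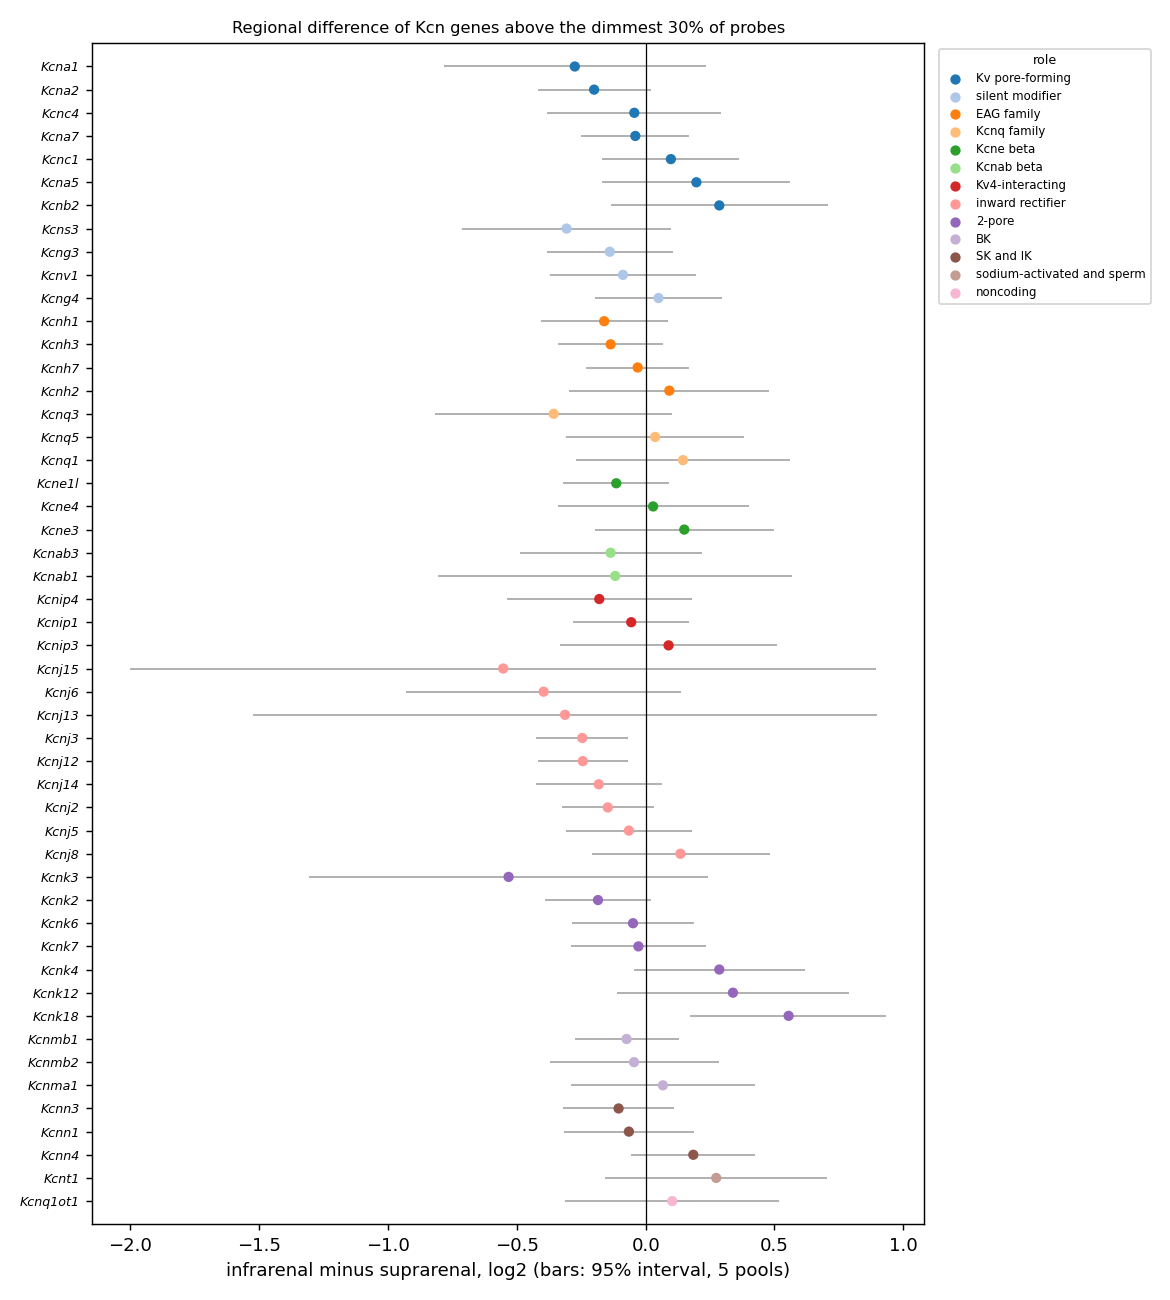
Regional difference (infrarenal minus suprarenal, log2) of the 50 brighter Kcn genes, coloured by role, with 95% intervals over 5 pools from limma. The intervals of Kcnj3, Kcnj12 and Kcnk18 alone leave out 0, before adjustment, and those of Kcnj15 and Kcnj13 are the widest.

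The BK channel genes of smooth muscle did not differ between the regions beyond their spread. Kcnmb1, whose product raises the calcium sensitivity of the channel, read 5.42, 5.56, 5.56, 5.77 and 5.44 log2 units in infrarenal pools 1, 6, 8, 11 and 12 and 5.47, 5.37, 5.85, 5.79 and 5.64 in the suprarenal parts. The 10 arrays spanned 0.48 log2 units, and the regions overlapped. The difference was -0.074 ± 0.088 (SE, n = 5 pools; adjusted p = 0.805), with a 95% interval of -0.28 to 0.13, and 0.043 after quantile normalization. Kcnma1, the pore, read 3.10, 3.51, 3.24, 3.31 and 3.02 in infrarenal and 3.002, 2.82, 3.09, 3.38 and 3.55 in suprarenal aorta, in the same order of pools. Its highest array was suprarenal in pool 12 and its lowest suprarenal in pool 6, and the difference was 0.067 ± 0.16 (SE, n = 5 pools; adjusted p = 0.911). It ran from -0.087 (without pool 6) to 0.22 (without pool 12) when 1 pool was left out. The other Kcnma1 probes differed by 0.37 ± 0.24 and 0.45 ± 0.20 (SE), the last with an adjusted p of 0.639. Kcnmb2, another BK beta subunit, differed by -0.045, and Kcnmb4, the beta subunit known from neurons, is described with the nerve markers below.

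The stretches before the starts of the smooth muscle channel genes are printed because these genes are the markers of the group and differ in base composition, as does Kcnmb4, which varied most between arrays. RefSeq windows (GRCm38.p6) were matched by symbol for 62 of the 80 genes. Each is the 250 bases upstream of the annotated start, 5′ to 3′, on the gene's strand, with capitals for the GC box GGGCGG on either strand. The windows are chr11:33962763-33963012, plus strand, for Kcnmb1, chr14:24004206-24004455, minus strand, for Kcnma1, chr6:142571615-142571864, minus strand, for Kcnj8, and chr10:116473524-116473773, minus strand, for Kcnmb4.
Kcnmb1: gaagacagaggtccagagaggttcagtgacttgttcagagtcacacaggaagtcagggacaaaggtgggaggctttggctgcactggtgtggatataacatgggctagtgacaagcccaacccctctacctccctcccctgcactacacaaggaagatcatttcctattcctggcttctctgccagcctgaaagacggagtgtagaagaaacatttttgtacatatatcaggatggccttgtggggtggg
Kcnma1: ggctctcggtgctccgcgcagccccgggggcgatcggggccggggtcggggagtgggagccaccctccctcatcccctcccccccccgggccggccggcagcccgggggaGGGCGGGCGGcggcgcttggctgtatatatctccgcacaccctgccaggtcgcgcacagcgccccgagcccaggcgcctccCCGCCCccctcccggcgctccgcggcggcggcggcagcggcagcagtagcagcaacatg
Kcnj8: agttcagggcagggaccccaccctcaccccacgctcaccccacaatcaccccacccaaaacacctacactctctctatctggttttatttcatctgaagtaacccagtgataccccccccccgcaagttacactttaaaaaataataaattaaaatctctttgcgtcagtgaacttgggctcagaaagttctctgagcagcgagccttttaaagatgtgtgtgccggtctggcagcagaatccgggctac
Kcnmb4: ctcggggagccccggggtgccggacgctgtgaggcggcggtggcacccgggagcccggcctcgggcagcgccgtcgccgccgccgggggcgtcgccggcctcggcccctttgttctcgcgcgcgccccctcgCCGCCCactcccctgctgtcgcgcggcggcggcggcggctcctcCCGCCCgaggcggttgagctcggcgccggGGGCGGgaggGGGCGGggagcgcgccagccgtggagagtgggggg
The window of Kcnmb1 held 1 CpG dinucleotide and 0 GC boxes and that of Kcnj8 6 CpGs and 0 boxes. Those of Kcnma1 and Kcnmb4 held 31 and 43 CpGs with 3 and 4 boxes, counted with overlaps. A GC box stood in 44.2% of 86 windows of Kcn genes and in 32.7% of the windows of all genes. Among windows of the brighter Kcn genes the share was 42.6% and among the others 46.9%. The CArG box, the site of serum response factor, was found in 0 of the 86 windows and in 1.47% of all windows. A match or its absence describes only the letters in these windows.

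The inward rectifiers held the genes with the smallest p among those lower in infrarenal aorta. Of 9 brighter members, 8 had negative differences, where 66.5% of all brighter genes did, and 7 after quantile normalization, where 49.8% did. Kcnj12, a pore of the strong rectifiers that hold the resting voltage, read 2.85, 2.56, 2.64, 2.73 and 2.53 in infrarenal and 3.16, 2.90, 2.85, 2.87 and 2.74 in suprarenal aorta. The infrarenal array was the lower in each of the 5 pools, while the regions overlapped as groups. The difference was -0.24 ± 0.075 (SE, n = 5 pools; adjusted p = 0.639), with an unadjusted p of 0.012, and -0.16 after quantile normalization, where the unadjusted p was 0.07. With all probes of the gene averaged the unadjusted p was 0.121. A dim Kcnj12 probe differed by -0.27 ± 0.29 (SE). Kcnj2, its close relative and a known channel of vascular cells, differed by -0.15 ± 0.077 (SE, n = 5 pools; adjusted p = 0.649) and was also lower in 5 of 5 pools. Kcnj14, of the same subfamily, differed by -0.18 and was lower in 4 of 5.

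The G protein-gated rectifiers Kcnj3, Kcnj5 and Kcnj6, opened in heart and neurons by inhibitory receptors, were brighter than the limit, and Kcnj9 was not. Kcnj3 read 2.14, 1.95, 2.10, 2.20 and 2.26 in infrarenal and 2.38, 2.11, 2.46, 2.43 and 2.50 in suprarenal aorta. It was lower in the infrarenal part of every pool, and the difference was -0.25 ± 0.077 (SE, n = 5 pools; adjusted p = 0.639), with an unadjusted p of 0.0129, 0.0632 after quantile normalization and 0.0511 without pool 8. Kcnj5 differed by -0.065. Kcnj6 read 5.51, 4.12, 4.81, 4.30 and 4.50 in infrarenal and 5.18, 5.20, 5.17, 5.44 and 4.23 in suprarenal aorta. Pool 12 was by far the lowest of the suprarenal arrays, infrarenal 1 was the highest of all 10, and the difference was -0.40 ± 0.23 (SE, n = 5 pools; adjusted p = 0.659). With 1 pool left out it ran from -0.58 (without pool 1) to -0.21 (without pool 11), and without pool 12 it was -0.56 ± 0.23 (SE, n = 4 pools; adjusted p = 0.449). A second, steadier Kcnj6 probe, described after its values were seen, read 3.76, 3.57, 3.55, 3.78 and 3.89 in infrarenal and 4.03, 3.91, 3.96, 3.87 and 4.02 in suprarenal aorta. Its difference was -0.25 ± 0.080 (SE; adjusted p = 0.639) and it was lower in 5 of 5 pools.

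Kcnj8, the pore of the vascular ATP-sensitive channel, read 3.41, 2.95, 2.82, 3.19 and 2.99 in infrarenal and 2.75, 2.85, 2.49, 3.13 and 3.47 in suprarenal aorta. It was the only brighter inward rectifier with a positive difference, 0.14 ± 0.15 (SE, n = 5 pools; adjusted p = 0.79). It was higher in the infrarenal part of 4 pools and lower in pool 12. With 1 pool left out the difference ran from 0.003 (without pool 1) to 0.29 (without pool 12). Its partner Abcc9, the sulphonylurea receptor, differed by -0.17 ± 0.23 (SE, n = 5 pools; adjusted p = 0.833). Kcnj11, the pore of the pancreatic and muscle form, lay below the limit. Kcnj15 and Kcnj13, pores known mostly from epithelia, had wide ranges. Kcnj15 read -1.57, -1.62, -2.90, -1.83 and -0.61 in infrarenal and -1.09, -0.59, -0.59, -0.21 and -3.28 in suprarenal aorta, with the lowest suprarenal array in pool 12. It differed by -0.55 ± 0.63 (SE, n = 5 pools; adjusted p = 0.795). With 1 pool left out this ran from -1.36 (without pool 12) to -0.11 (without pool 8).

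**Figure D3:**
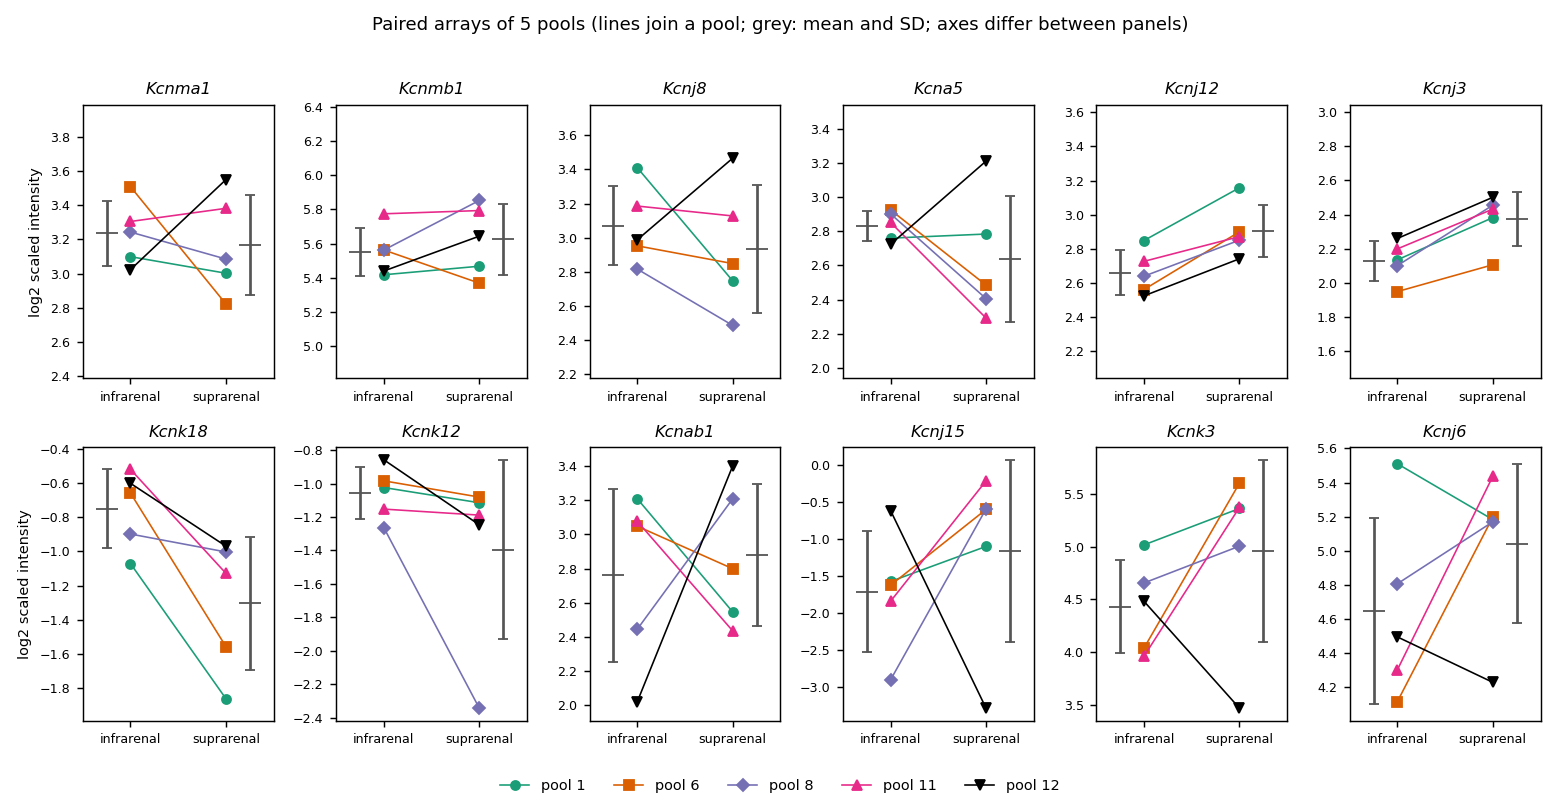
Log2 scaled intensity (vertical axis, which differs between panels) of 12 Kcn genes in the infrarenal and suprarenal parts of each pool, joined by lines, with the mean and SD of 5 arrays in grey. Lines of Kcnj12, Kcnj3, Kcnk18 and Kcnk12 run the same way in all 5 pools, and in pool 12 (black) the lines of Kcnk3, Kcnj15, Kcna5 and Kcnj8 run against most of the others.

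Genes of the Kcnk family, whose channels carry the background potassium current, lay on both sides of 0. Kcnk18, a channel regulated by calcineurin and known from sensory neurons, read -1.07, -0.66, -0.90, -0.52 and -0.60 in infrarenal and -1.86, -1.56, -1.003, -1.13 and -0.97 in suprarenal aorta. Each pool was higher in its infrarenal part, by 0.10 to 0.90 log2 units, and the regions overlapped through the infrarenal array of pool 1. The difference was 0.56 ± 0.17 (SE, n = 5 pools; adjusted p = 0.639), with an unadjusted p of 0.00998, and 0.49 after quantile normalization. The probe lay at percentile 36.7 of all probes, close to the limit. Kcnk12, a subunit that gives little current by itself, read -1.02, -0.98, -1.26, -1.15 and -0.86 in infrarenal and -1.12, -1.08, -2.34, -1.19 and -1.25 in suprarenal aorta. The suprarenal array of pool 8 was far below the others, and the difference was 0.34 ± 0.20 (SE, n = 5 pools; adjusted p = 0.659), or 0.15 without pool 8. Kcnk4, a mechanosensitive channel, differed by 0.29 ± 0.14 (SE, n = 5 pools; adjusted p = 0.647) and was higher in 5 of 5 pools. Kcnk2, another mechanosensitive channel, differed by -0.19 ± 0.089 (SE, n = 5 pools; adjusted p = 0.639), Kcnk6 by -0.049 and Kcnk7 by -0.028.

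Kcnk3, the acid-sensitive background channel that is also abundant in brown fat, had the widest range of the brighter genes after Kcnj15 and Kcnj13. It read 5.02, 4.04, 4.66, 3.96 and 4.48 in infrarenal and 5.37, 5.61, 5.01, 5.38 and 3.47 in suprarenal aorta. The suprarenal arrays of pools 1, 6, 8 and 11 were among the highest, that of pool 12 was the lowest of all 10, and the difference was -0.53 ± 0.34 (SE, n = 5 pools; adjusted p = 0.669). With 1 pool left out it ran from -0.92 (without pool 12) to -0.27 (without pool 6), the former with an adjusted p of 0.384. Of 7 brown adipocyte markers 6 were above the limit, with Zic1 below it, and their summed scaled intensity was 823.6, 189.7, 484.2, 273.1 and 455.8 on infrarenal and 929.4, 947.1, 699.7, 977.7 and 138.6 on suprarenal arrays. The 5 arrays highest in these markers, suprarenal 1, 6, 8 and 11 and infrarenal 1, were also the 5 highest in Kcnk3 and in the brighter Kcnj6 probe. All of these but infrarenal 1 are suprarenal. Sharing the set and reading higher in suprarenal aorta outside pool 12 therefore cannot be told apart here. The same held for Kcna2, Kcnj12, Kcnj14 and Kcns2, 6 of 80 Kcn genes in all (7.5%), where 6.59% of all genes did so. Kcns2 lay below the limit, at a mean of -1.93. No other probe of a Kcn gene shared these arrays, and so neither did the further probes of Kcna2, Kcnj12 and Kcnj6. A covariate was made from the mean log2 of the brown adipocyte markers without Zic1. Dio2 had no value on infrarenal array 1, so the mean there was over fewer markers. That mean was 6.632, against 6.324 on suprarenal array 1 with Dio2, and these are not on equal terms. The sum of 823.6 lacks Dio2 as well. With this covariate the difference was -0.14 for Kcnk3 (adjusted p = 0.798) and -0.14 for Kcnj6 (adjusted p = 0.795). For Kcnj12 it was then -0.24 and for Kcnj3 -0.26. In these whole-vessel samples fewer cells of a type and less RNA per cell cannot be told apart, and the part of adipose tissue in these values was not tested further.

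A different set of arrays was high in sympathetic neuron and chromaffin markers, and 4 Kcn genes shared it. Of 9 such markers measured 8 were above the limit, Chgb was below it, and their summed scaled intensity was 70.6, 78.4, 142.3, 77.6 and 155.3 on infrarenal and 270.9, 90.2, 97.2, 165.8 and 78.3 on suprarenal arrays. The 4 highest arrays, suprarenal 1 and 11 and infrarenal 8 and 12, lay at or above 142.3 and the others at or below 97.2. Th, Phox2a, Chga, Stmn2, Snap25 and Prph each had these 4 highest arrays, and Dbh, Chgb and Uchl1 did not. Dbh, a bright marker, spanned only 0.45 log2 units and was highest on suprarenal 11, 8 and 1. Kcnmb4 read -1.80, -1.66, -0.78, -2.84 and -0.38 in infrarenal and 0.98, -1.77, -5.17, -0.28 and -2.53 in suprarenal aorta, where pool 8 lay at the floor. Kcnk10, a mechanosensitive background channel, read -3.35, -2.43, -1.43, -3.69 and -0.77 in infrarenal and -0.43, -3.97, -3.40, -0.97 and -4.22 in suprarenal aorta. Kcnj13 read -1.35, -1.27, 0.79, -1.12 and 0.26 in infrarenal and 0.83, -0.28, -0.36, 0.053 and -1.36 in suprarenal aorta. Kcnmb4, Kcnk10 and Kcnj13 had the same 4 highest arrays as the marker sum, as had Kcnq1ot1, which gave 4 of 80 (5%) against 1.64% of all genes. So had 3 further probes, 2 of Kcna2, an axonal voltage-gated channel, and 1 of Kcnq5. These arrays come from both regions, and the regional differences of Kcnmb4, Kcnk10 and Kcnj13 were 0.26 ± 0.99 (SE, n = 5 pools), 0.26 and -0.31, with adjusted p-values of 0.948, 0.945 and 0.871. The probes of Kcnmb4 and Kcnk10 were below the limit, and the signs of all 3 differences turned on which pool was left out. The pattern was noticed in the data, and the part of nerve or adrenal tissue in it was not tested. For skeletal muscle markers, 0 of 80 genes shared the 5 highest arrays, against 0.628% of all genes, and 1 further probe, of Kcnb2, did.

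**Figure D4:**
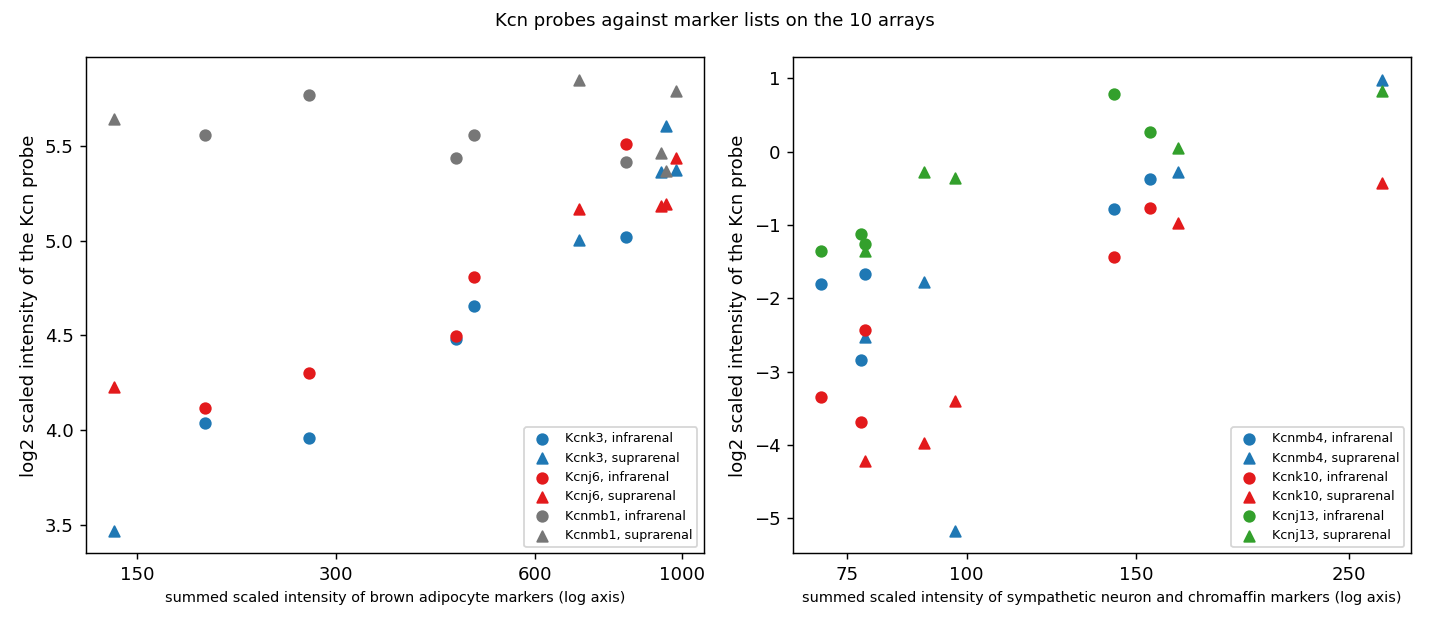
Log2 scaled intensity of Kcn probes (vertical axes) against the summed scaled intensity of brown adipocyte markers (left, log axis) and of sympathetic neuron and chromaffin markers (right, log axis) on 10 arrays, with circles for infrarenal and triangles for suprarenal arrays. Kcnk3 and Kcnj6 are high on the 5 arrays with sums of 699.7 or more while Kcnmb1 spans 0.48 log2 units with no such order, and Kcnmb4, Kcnk10 and Kcnj13 are highest on the 4 arrays with sums of 142.3 or more.

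Among voltage-gated pores, Kcna5, a delayed rectifier of arterial smooth muscle, read 2.76, 2.93, 2.90, 2.85 and 2.72 in infrarenal and 2.78, 2.49, 2.41, 2.29 and 3.21 in suprarenal aorta. The infrarenal arrays lay close together and the suprarenal ones spread around them, with pool 12 highest. The difference was 0.20 ± 0.16 (SE, n = 5 pools; adjusted p = 0.721). It ran from 0.11 (without pool 11) to 0.37 (without pool 12) when 1 pool was left out. Kcna1 and Kcna2, known from axons, differed by -0.28 and -0.20, Kcnb2 by 0.29 and Kcnc1, of fast-firing cells, by 0.098. The other Kcna2 probes differed by 0.075, -0.007 and -0.13. A further probe of Kcnc1 and one of Kcna6 lay below the limit, each with 1 array at the floor. Both were higher in infrarenal aorta (limma, unadjusted p = 0.0463 and 0.0144, adjusted p = 0.639 for each). The difference of Kcna1 ran from -0.51 (without pool 12) to -0.10 (without pool 1) and that of Kcnb2 from 0.14 (without pool 8) to 0.41 (without pool 6) when 1 pool was left out. Kcna3, Kcna4, Kcna6, Kcnc2 and the 3 Kcnd genes measured were below the limit. Kcnc2 had 2 arrays at the floor, and the size of its difference is not given.

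The subunits that modify voltage-gated channels did not pass the test either. Kcnab1, a cytoplasmic beta subunit that speeds inactivation, read 3.21, 3.05, 2.44, 3.08 and 2.02 in infrarenal and 2.55, 2.80, 3.21, 2.44 and 3.40 in suprarenal aorta. Pools 8 and 12 were lower in the infrarenal part and pools 1, 6 and 11 higher, and the difference was -0.12 ± 0.30 (SE, n = 5 pools; adjusted p = 0.919). It ran from -0.31 (without pool 1) to 0.20 (without pool 12) when 1 pool was left out. Kcne4, which dampens several voltage-gated channels, read 2.11, 1.89, 2.08, 2.62 and 1.75 in infrarenal and 1.83, 1.67, 1.86, 2.42 and 2.52 in suprarenal aorta and differed by 0.029 ± 0.16 (SE, n = 5 pools; adjusted p = 0.966). It was lower in the infrarenal part of pool 12 and higher in the others, and with 1 pool left out the difference ran from -0.032 (without pool 1) to 0.23 (without pool 12). Of the silent modifiers, which form channels only with other pores, Kcng3 read 3.28, 2.66, 2.82, 2.90 and 2.93 in infrarenal and 3.24, 3.19, 3.09, 2.86 and 2.91 in suprarenal aorta and differed by -0.14 ± 0.11 (SE, n = 5 pools; adjusted p = 0.713). Kcns3 differed by -0.31 ± 0.18 (SE, n = 5 pools; adjusted p = 0.656), and with 1 pool left out the difference ran from -0.49 (without pool 12) to -0.18 (without pool 8). Kcnip1, a calcium sensor for Kcnd pores, read 2.80, 2.81, 2.96, 3.05 and 2.61 in infrarenal and 2.80, 2.69, 2.91, 3.07 and 3.03 in suprarenal aorta, a difference of -0.056 (0.036 after quantile normalization).

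In the Kcnh and Kcnq families no probe that stood for a gene had an unadjusted p under 0.05. Kcnh3 read 3.33, 2.62, 3.21, 2.91 and 2.80 in infrarenal and 3.22, 2.98, 3.33, 3.11 and 2.91 in suprarenal aorta and differed by -0.14 ± 0.089 (SE, n = 5 pools; adjusted p = 0.674). Its other probes differed by 0.030 and -0.11. Kcnh2, the cardiac repolarising channel, differed by 0.092, a value that ran from -0.021 (without pool 6) to 0.27 (without pool 12) when 1 pool was left out. Kcnq5, a channel of arterial muscle, read 1.55, 1.80, 1.71, 1.88 and 2.38 in infrarenal and 2.04, 1.35, 1.39, 2.17 and 2.18 in suprarenal aorta and differed by 0.037 ± 0.15 (SE, n = 5 pools; adjusted p = 0.953). Kcnq1 and Kcnq3 differed by 0.15 and -0.36. A second Kcnq3 probe, below the limit and at the floor on 1 array, had the opposite sign and was higher in the infrarenal part of 5 of 5 pools (unadjusted p = 0.01, adjusted p = 0.639). The antisense RNA Kcnq1ot1, which silences neighbouring imprinted genes, read 0.99, 1.15, 1.63, 0.95 and 1.70 in infrarenal and 1.42, 0.88, 0.97, 1.38 and 1.26 in suprarenal aorta and differed by 0.10 ± 0.18 (SE, n = 5 pools; adjusted p = 0.876).

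Kcnn3, a small-conductance channel of the endothelium, had the narrowest range of the brighter genes. It read 2.51, 2.74, 2.53, 2.64 and 2.45 in infrarenal and 2.63, 2.54, 2.78, 2.76 and 2.70 in suprarenal aorta and differed by -0.11 ± 0.093 (SE, n = 5 pools; adjusted p = 0.744). Kcnn4, the intermediate-conductance channel of endothelium and blood cells, read 0.37, 0.53, 0.56, 0.82 and 0.67 in infrarenal and 0.10, 0.48, 0.51, 0.40 and 0.53 in suprarenal aorta. It was higher in the infrarenal part of 5 of 5 pools, by 0.19 ± 0.10 (SE, n = 5 pools; adjusted p = 0.656). The 7 endothelial markers were all above the limit, with summed intensities of 93.6 to 149.3 on infrarenal and 105.9 to 143.0 on suprarenal arrays. All 4 macrophage markers measured had negative differences (60.4% of all genes did), and Cd68 and Csf1r were not measured. The 3 C1q genes, C1qa, C1qb and C1qc, had an unadjusted p under 0.05 (limma; 5.89% of all genes were lower at that p), and none passed adjustment. Adgre1 was lower in the infrarenal part of 3 pools and higher in 2 (limma, adjusted p = 0.649). The sums of the 4 markers were 130.6 to 173.0 on infrarenal and 176.2 to 241.1 on suprarenal arrays. They mostly reflect the C1q genes, with mean log2 of 5.58 to 6.10 against 0.020 for Adgre1. The part of any cell type in the Kcnn4 values was not tested. Kcnt1, a sodium-activated channel, read -0.86, -0.62, -1.10, -0.71 and -0.80 in infrarenal and -1.13, -1.63, -1.16, -0.80 and -0.74 in suprarenal aorta and differed by 0.27 ± 0.19 (SE, n = 5 pools; adjusted p = 0.683).

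Without pool 12, 12 of the 80 genes had an unadjusted p under 0.05, and 0 passed adjustment (smallest adjusted p = 0.384). The 8 lower in infrarenal aorta were Kcna1, Kcnj12, Kcnj15, Kcnj3, Kcnj6, Kcnk3, Kcns2 and Kcns3 (10% against 8.99% of all genes), and the 4 higher were Kcna5, Kcne4, Kcnj8 and Kcnk18 (5% against 3.76%). The count was 9 without pool 1 (11.2% against 9.42% of all genes), 5 without pool 6 (6.25% against 3.99%), 2 without pool 8 (2.5% against 4.9%) and 4 without pool 11 (5% against 6.24%).

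Genes that act with these channels did not pass either. Of 9 measured channel partners, such as auxiliary subunits and scaffolds, 7 were lower and 2 higher in infrarenal aorta, with a median of -0.152 log2 units, where 60.4% of all genes were below 0 with a median of -0.049. Cav1, the coat protein of caveolae, where BK channels gather, differed by -0.28 ± 0.14 (SE, n = 5 pools; adjusted p = 0.64). Of 16 measured genes of calcium entry and release, 11 were higher and 5 lower, with a median of 0.183 against the same -0.049. Cacna1c, the pore of the main calcium channel of arterial muscle, differed by 0.20 and Ryr2, whose calcium sparks open BK channels, by 0.19. Cacna1h, a low-voltage calcium channel, differed by 0.29 ± 0.12 (SE; adjusted p = 0.639). At an unadjusted p under 0.05 (limma) it was the only gene called, 1 of 16, and 0 of 9 channel partners were called. Of all genes 5.89% were lower and 2.17% higher at that p, so 1 call does not set these lists apart.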

How the data were processed

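Each sample was 1 single-colour array. Per the labels' protocols, 0.34 to 0.54 µg of RNA was amplified to biotin-labelled cRNA and stained with Cy5-streptavidin. The authors deposited linear intensities with array medians of 1.001 to 1.003, which had been scaled by a method not given in the sources used. Intensities below 0.0278 (percentile 1 of positive values; -5.17 on the log2 scale; 5328 values) were raised to it and log2 was taken. Of 36227 probes, 36061 had at least 3 values per region. Names came from the platform annotation, updated by Entrez identifier (21487 of 21615 probes with 1 symbol matched); 681 probes had several symbols and 13931 none. The 4 probes that pair a Kcn symbol with another were left out.

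The regional test was limma's moderated test (version 3.58.1, under R 4.3.3; eBayes with a variance trend, pool as block, two-sided, Benjamini-Hochberg over all probes, threshold 0.05). The series' design text ties the paired arrays to the same animals. Their deviations from the region means correlated between -0.2 and 0.135. The scripts were tested on simulated data. Alternatives were RNA input as covariate, averaged probes, array weights, no replicate block, an added offset of 0.2701 without the floor, removal of the dimmest 30% of probes, quantile normalization, an untrended variance, a limit at the dimmest 50% and omission of each pool; the 2 marker score covariates were added after the data were seen. Genes named in full were Kcnma1, Kcnmb1 and Kcnj8, the brightest of each role if above the limit, those brighter than the limit with an unadjusted p under 0.05, and the 6 brighter than the limit with the widest range; other genes and probes given by array were chosen after their values were seen. Members and lists were chosen with earlier results of these data known.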

Additional observations from a re-analysis of the deposited data

Results flagged for a closer look

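Of 42 sets of 5 arrays (21 named genes in each region), 4 held a distant array. The figure of about 2.1 such sets by chance does not apply to these genes. Some were named for their wide range over these same arrays, and all 4 flagged genes were among those. Kcnj15 read -3.28 log2 units on suprarenal array 12, with the other 4 between -1.09 and -0.21. Kcnj6 read 4.23 log2 units on suprarenal array 12, with the other 4 between 5.17 and 5.44. Kcnk12 read -2.34 log2 units on suprarenal array 8, with the other 4 between -1.25 and -1.08. Kcnk3 read 3.47 log2 units on suprarenal array 12, with the other 4 between 5.01 and 5.61. In 3 of the 4 sets the distant array was suprarenal array 12.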

How the results depend on the processing

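Under each of the alternatives run, including the fit with no replicate block, 0 Kcn genes passed an adjusted p of 0.05. At an unadjusted p under 0.05 the count of 3 became 7 with no replicate block (8.75%, against 7.81% of all genes), 5 with RNA input as a covariate (6.25% against 9.72%) and 5 with the sympathetic neuron score as a covariate (6.25% against 10.6%), and ran from 2 to 12 when 1 pool was left out (3.99% to 12.7% of all genes). Kcnk18 kept an unadjusted p under 0.05 under all of them. The median difference over Kcn genes lay between -0.076 and -0.021, the count of negative differences between 42 and 55 where 80 genes were tested, and the count above the limit between 37 (limit at the dimmest 50%) and 51. Of the differences of named genes, 294 kept their sign and 21 turned it. The values that turned were Kcne4 at -0.021 with RNA input as a covariate, Kcne4 at -0.098 with brown adipocyte score as a covariate, Kcne4 at -0.007 with sympathetic neuron score as a covariate, Kcnip1 at 0.036 after quantile normalization, Kcnj15 at 0.015 with brown adipocyte score as a covariate, Kcnma1 at -0.062 with brown adipocyte score as a covariate, Kcnmb1 at 0.043 after quantile normalization and Kcnq5 at -0.002 with array weights. Leaving out 1 pool turned 7 genes, with ranges of Kcnab1 -0.31 to 0.20, Kcne4 -0.032 to 0.23, Kcnip1 -0.098 to 0.036, Kcnj13 -0.80 to 0.15, Kcnma1 -0.087 to 0.22, Kcnq1ot1 -0.036 to 0.24 and Kcnq5 -0.067 to 0.17. The cause was not tested. The brown adipocyte score of infrarenal array 1 was taken without Dio2, as described above. The regional difference of dim probes is limited by the floor, and 9 of the 30 dimmer genes had at least 1 array at it.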
